A study of Mus musculus with 2 samples.

Results

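The mir-17-92 cluster is a group of 6 microRNA hairpins that lie side by side in 1 primary transcript, the long non-coding RNA Mir17hg. Its genes Mir17, Mir18, Mir19a, Mir20a, Mir19b-1 and Mir92-1 were chosen by their GENCODE M21 symbols among the 1973 gene rows of each library, by a rule that uses no counts, and all 6 were found in both libraries. The libraries hold RNA of microRNA size from whole hearts of mouse embryos of strain B6NCrl at embryonic day 12.5, with both sexes pooled. There was 1 group of 2 biological replicates and no treated or mutant group, so no contrast between conditions could be made. An exact paired permutation test over 2 libraries cannot go below p = 0.5, and values are therefore given per library and as mean ± SD. In whole tissue, fewer cells that hold a microRNA and less of it per cell cannot be told apart.

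A microRNA is cut in successive steps from a hairpin of its primary transcript, and 1 arm of the hairpin, the mature strand, guides Argonaute to messenger RNAs. Pairing rests mainly on the seed, which is bases 2 to 8 of the mature strand. The host transcript of mir-17-92 is a target of MYC and of E2F transcription factors, and the cluster is known for promoting proliferation and survival of cells. Mice that lack it die around birth with small lungs and a defect of the ventricular septum, and in the heart it is known to promote proliferation of cardiomyocytes.

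The mature strands are shown because their shared and unshared bases decide both which messenger RNAs they can pair with and which reads can be told apart. They are the RefSeq sequences on GRCm38.p6, written 5′ to 3′ with the seed in capitals, and all 6 genes matched an entry.
miR-17-5p, from Mir17: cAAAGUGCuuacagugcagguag
miR-20a-5p, from Mir20a: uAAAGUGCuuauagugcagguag
miR-18a-5p, from Mir18: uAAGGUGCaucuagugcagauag
miR-19a-3p, from Mir19a: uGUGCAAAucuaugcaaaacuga
miR-19b-3p, from Mir19b-1: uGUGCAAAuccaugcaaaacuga
miR-92a-3p, from Mir92-1: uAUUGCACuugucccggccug

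The 6 strands fall into 4 seed families. Mir17 and Mir20a share the seed AAAGUGC, and their mature strands differ at 2 bases, C1U and C12U, counted from 1 at the 5′ end with the base of miR-17-5p first. The seed of Mir18 is AAGGUGC and that of Mir92-1 is AUUGCAC. Mir19a and Mir19b-1 share the seed GUGCAAA, and their strands differ at 1 base, U11C. The tables give 1 count per hairpin and do not separate its arms, so the second arm of a hairpin, where it was sequenced, is part of the same value.

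On the mouse assembly GRCm38, also called mm10, Mir17hg (ENSMUSG00000089726.2) occupies bases 115042879 to 115046727 of the plus strand of chromosome 14. GENCODE M21 gives it 1 transcript with 2 exons, and all 6 hairpins lie in exon 2. Mir17 (ENSMUSG00000065508.1) runs from 115043671 to 115043754, Mir18 (ENSMUSG00000065403.1) from 115043851 to 115043946 and Mir19a (ENSMUSG00000065416.1) from 115044000 to 115044081. They are followed by Mir20a (ENSMUSG00000065442.1) from 115044157 to 115044263, Mir19b-1 (ENSMUSG00000076256.1) from 115044305 to 115044391 and Mir92-1 (ENSMUSG00000076062.1) from 115044427 to 115044506. The whole cluster spans 836 bases, and gaps between neighbouring hairpins are 35 to 96 bases long. The host transcript itself has no row in the tables and was not analysed here.

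The libraries held 10601121 reads in replicate 2 and 9235580 in replicate 1. Of these, 5279908 (49.8%) and 4478599 (48.5%) were counted on the strand of a microRNA gene. Levels are CPM, counts scaled to the total of these sense counts. A gene with 0 counts could still lie at a level as high as 0.568 CPM in replicate 2 or 0.670 CPM in replicate 1. Reads that fit several places in the genome, which belong to no gene's count, were 25.3% of replicate 2 and 27.1% of replicate 1. The intervals given here hold counting error alone, since the labels name no molecular identifiers. Marker levels are given for replicates 2 and 1 in that order. The cardiac muscle microRNAs Mir208a, Mir208b and Mir499 summed to 61924 and 63958 CPM. The endothelial Mir126a stood at 68770 and 67024 CPM. Of the smooth muscle pair, Mir143 stood at 89222 and 87662 CPM and Mir145a at 1277 and 1130 CPM. The 5 epithelial markers summed to 727 and 735 CPM, and the 3 of white blood cells to 331 and 318 CPM. Of the neural markers, Mir132 stood at 92.4 and 87.5 CPM, and Mir124a-1 at 0.189 CPM in replicate 2 and at 0 in replicate 1.

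The cluster as a whole took 3.92% of the sense counts in replicate 2 (206812 counts, exact 95% binomial interval 3.90% to 3.93%) and 3.69% in replicate 1 (165353 counts, 3.67% to 3.71%), or 3.80% ± 0.159 (SD, n = 2). Nearly all of this share came from 4 hairpins. Mir17, Mir20a, Mir18 and Mir92-1 held 99.8% of the cluster's counts, and Mir19a and Mir19b-1 together held 0.157% ± 0.00186 (SD, n = 2). The pair with the seed AAAGUGC, Mir17 and Mir20a, held 84.1% ± 0.175 (SD, n = 2), Mir18 held 9.41% ± 0.275 and Mir92-1 held 6.29% ± 0.102. Reads that fit several places are in none of these shares. This touches Mir19b-1 and Mir92-1, whose mature strands each occur in a second gene.

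Mir17, known to repress the cell cycle inhibitor Cdkn1a and the pro-apoptotic Bim, was the member with the most counts. It had 126906 counts (24036 CPM) in replicate 2 and 100366 counts (22410 CPM) in replicate 1. Both libraries placed it 11th among all genes, at 23223 ± 1149 CPM (SD, n = 2). In the order of levels it stood between Mir21a, at 28206 ± 209 CPM, and Mirlet7g, at 19813 ± 3133 CPM, and its values overlapped those of neither gene.

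Mir20a, which shares the seed and many targets of Mir17, had 47376 counts (8973 CPM) in replicate 2 and 38569 counts (8612 CPM) in replicate 1. Its level relative to Mir17 was 0.373 in replicate 2 and 0.384 in replicate 1, a ratio of 0.379 ± 0.00776 (SD, n = 2). Its values overlapped those of Mir22, a microRNA of heart and muscle next above it at 8926 ± 506 CPM, and lay above those of Mir487b, next below it at 7466 ± 814 CPM. The cardiac Mir208a, at 9885 ± 160 CPM, stood just above Mir22.

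Mir18, whose mature strand miR-18a is known to repress Ctgf, had 19050 counts (3608 CPM) in replicate 2 and 15875 counts (3545 CPM) in replicate 1. It had the smallest relative spread of the 6 members, with an SD of 1.25% of its mean of 3576 CPM. Its values overlapped those of Mir744, next above it at 3603 ± 286 CPM, and lay just above those of Mir214, a mesenchymal microRNA at 3455 ± 73.5 CPM.

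Mir92-1, the last hairpin of the cluster, gives miR-92a, known from endothelium for repressing Itga5. It had 13159 counts (2492 CPM) in replicate 2 and 10282 counts (2296 CPM) in replicate 1, with a mean of 2394 ± 139 CPM (SD, n = 2). Its values overlapped those of Mir125a (2512 ± 191 CPM) and Mir324 (2335 ± 81.0 CPM), the genes next above and below it. Mir18 exceeded Mir92-1 by a ratio of 1.45 in replicate 2 and 1.54 in replicate 1, the closest step between members next to each other in level.

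Both hairpins with the miR-19 seed stood far below the other members. Mir19a had 269 counts in replicate 2, or 50.9 CPM with an exact 95% interval of 45.0 to 57.4, and 211 counts in replicate 1, or 47.1 CPM (41.0 to 53.9). Mir19b-1 had 52 counts in replicate 2, or 9.85 CPM (7.36 to 12.9), and 50 counts in replicate 1, or 11.2 CPM (8.29 to 14.7). Mir92-1 exceeded Mir19a by a ratio of 48.9 in replicate 2 and 48.7 in replicate 1, which was the largest step between members next to each other in level. Mir19a in turn exceeded Mir19b-1 by 5.17 in replicate 2 (3.83 to 7.10) and 4.22 in replicate 1 (3.09 to 5.87). Reads of exactly miR-19b-3p also fit a second gene and would be left out of the count of Mir19b-1. Its level and this ratio therefore do not measure all of miR-19b-3p.

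The order Mir17, Mir20a, Mir18, Mir92-1, Mir19a and Mir19b-1 was the same in both libraries, and no pair next to each other in it overlapped. From Mir17 to Mir19b-1 the levels spanned a ratio of 2441 in replicate 2 and 2007 in replicate 1, or 11.11 log2 units on average. These are ratios of counts, and how evenly strands of different sequence became reads was not measured. Reads of exactly the mature strand of Mir19b-1 or Mir92-1 also fit a second gene and would be missing from these counts. The span and the order are therefore those of the counted reads, not of all reads of each strand. Mature strands are 21 to 23 bases long, so CPM values were compared without division by length. Divided by the length of the hairpin, the order stayed the same, with 276 CPM per base for Mir17, 82.2 for Mir20a, 37.3 for Mir18, 29.9 for Mir92-1, 0.598 for Mir19a and 0.121 for Mir19b-1. The reads on the opposite strand numbered 0 at each of the 6 hairpins in both libraries.

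**Figure D1:**
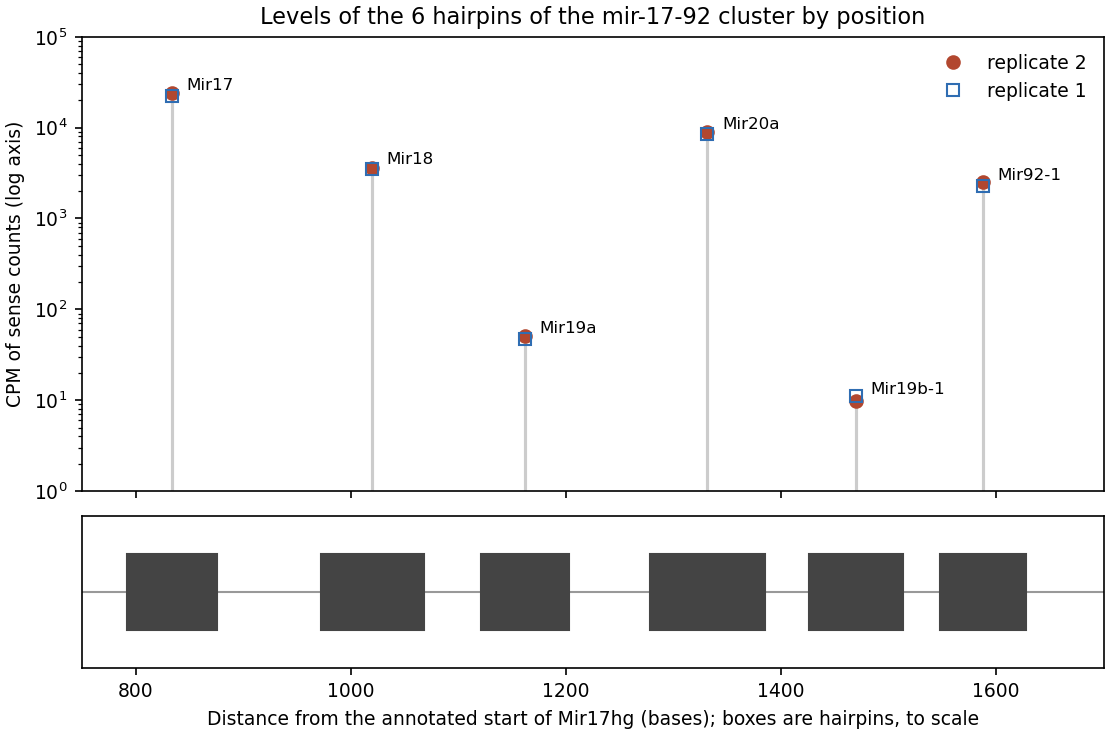
CPM of each hairpin on a log axis (upper panel; filled circles replicate 2, open squares replicate 1) above the hairpins drawn to scale by distance in bases from the annotated start of Mir17hg (lower panel). The low members Mir19a and Mir19b-1, at 49.0 and 10.5 CPM on average, stand in the third and the fifth place between members above 1000 CPM.

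Level did not follow place along the transcript. The first hairpin was highest, but the fourth, Mir20a, exceeded the second, Mir18, by a ratio of 2.49 in replicate 2 and 2.43 in replicate 1. Mir19a and Mir19b-1 each lie between hairpins at above 1000 CPM, as the map of levels by position shows. The GC content of the strands did not order the members by level either. The miR-19a and miR-19b strands have GC contents of 34.8% and 39.1%, against 39.1% for miR-20a-5p, 43.5% for miR-18a-5p, 47.8% for miR-17-5p and 57.1% for miR-92a-3p.

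The members also differ in how many genes could give the same read. The mature strands of Mir17, Mir18, Mir19a and Mir20a each occur in 1 gene of the RefSeq microRNA table. Those of Mir19b-1 and Mir92-1 occur in 2, the second being Mir19b-2 and Mir92-2 in the paralogous cluster on chromosome X. The hairpins are shown with the longest run that each pair shares in capitals, since a read that lies within this run fits both genes of the pair.
Mir19b-1: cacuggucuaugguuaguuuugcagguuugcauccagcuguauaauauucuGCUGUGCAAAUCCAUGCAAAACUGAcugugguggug
Mir19b-2: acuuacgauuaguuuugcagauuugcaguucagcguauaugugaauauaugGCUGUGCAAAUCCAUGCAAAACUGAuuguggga
Mir92-1: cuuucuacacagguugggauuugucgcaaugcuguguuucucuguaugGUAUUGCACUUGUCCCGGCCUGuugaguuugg
Mir92-2: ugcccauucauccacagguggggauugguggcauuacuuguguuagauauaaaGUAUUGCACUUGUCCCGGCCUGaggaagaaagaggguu

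The run shared by the Mir19b hairpins is 25 bases long and that shared by the Mir92 hairpins is 22 bases long. Both end at the last base of the mature strand, so a read that runs 1 templated base further differs between the copies. Against the 1004 other hairpins of the table, the longest shared run was 13 bases for Mir17 and for Mir19a and 17 bases for Mir18 and for Mir20a. Reads of exactly the mature strand of Mir19b-1 or Mir92-1 fit 2 places and would be counted to neither gene. How many of the 2677232 and 2503492 reads that fit several places in replicates 2 and 1 came from the cluster is not recorded in the tables. The values of Mir19b-1 and Mir92-1 therefore do not measure the total of miR-19b-3p and miR-92a-3p.

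Mir92-1, whose strand has 2 copies, stood 48.8 ± 0.133 times (SD, n = 2) above Mir19a, whose strand has 1. Both miR-17-5p and miR-19a-3p have a relative at a distance of 1 base. The relative of miR-17-5p is miR-106a-5p, which differs by U10A, and that of miR-19a-3p is miR-19b-3p, which differs by U11C. Mir17 stood at 23223 CPM and Mir19a at 49.0 CPM. The part of copies and near-identical strands in these levels was not tested. How many mismatches the aligner allowed is not stated.

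Mammals carry a pair of further clusters that arose from the same ancestor. The mir-106a-363 cluster on chromosome X holds Mir106a, Mir18b, Mir20b, Mir19b-2, Mir92-2 and Mir363, and the mir-106b-25 cluster, in an intron of the replication gene Mcm7 on chromosome 5, holds Mir106b, Mir93 and Mir25. The mir-17-92 cluster had 3.09 times the counts of mir-106b-25 in replicate 2 and 3.12 times in replicate 1 (3.11 ± 0.0215, SD, n = 2). It had 149 times the counts of mir-106a-363 in replicate 2 and 137 times in replicate 1 (143 ± 8.27, SD, n = 2). The paralogous clusters took 1.27% and 1.18% of the sense counts for mir-106b-25, and 0.0264% and 0.0270% for mir-106a-363, in replicates 2 and 1. In each library both ratios lay above 1. An SD of 2 libraries measures their spread only roughly.

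**Figure D2:**
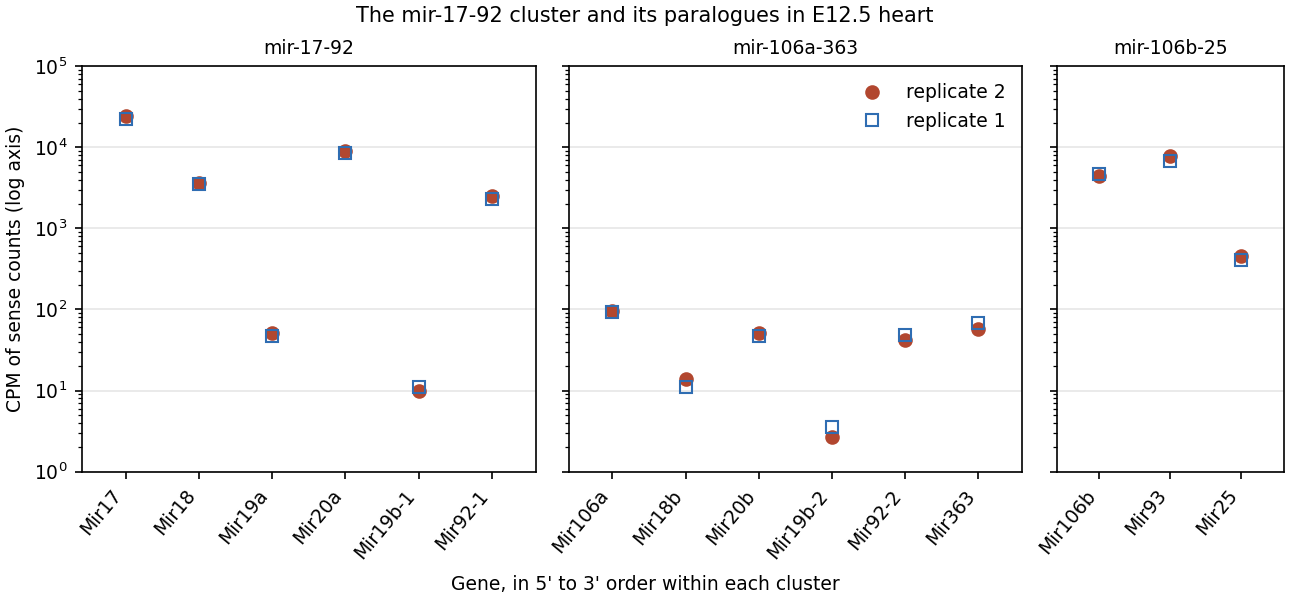
CPM of the 6 genes of mir-17-92 and of the 9 genes of its paralogous clusters on a shared log axis, in 5′ to 3′ order (filled circles replicate 2, open squares replicate 1). Above 1000 CPM lie 4 genes of mir-17-92 and 2 of mir-106b-25, while the 6 genes of mir-106a-363 all lie below 100 CPM.

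Of the 6 members, 5 were set beside a counterpart on chromosome X, chosen by name or, for Mir17, by sequence (Mir106a). Each of these 5 was higher than its counterpart in both libraries, by ratios that differed widely. Mir19a has none. Mir17 had 248 times the counts of Mir106a in replicate 2 (exact 95% interval 227 to 271) and 243 times in replicate 1 (221 to 268). Mir20a exceeded Mir20b by 175 (155 to 198) in replicate 2 and 181 (158 to 208) in replicate 1. Mir18 exceeded Mir18b by 261 (207 to 333) in replicate 2 and 324 (245 to 438) in replicate 1, with Mir18b at 73 and 49 counts.

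The pairs that share a mature strand had smaller ratios. Mir92-1 exceeded Mir92-2 by 60.1 (52.6 to 69.0) in replicate 2 and 48.0 (42.0 to 55.3) in replicate 1. Mir19b-1 exceeded Mir19b-2 by 3.71 (2.03 to 7.26) in replicate 2 and 3.13 (1.75 to 5.88) in replicate 1, on 52 and 50 counts against 14 and 16. The intervals of these 2 pairs lay below those of the 3 others in each library. Mir363 has no counterpart in mir-17-92 by name and stood at 57.4 and 67.7 CPM in replicates 2 and 1. The lowest counts of mir-17-92 and of mir-106a-363 were those of Mir19b-1 and Mir19b-2. Reads of exactly the mature strand that these genes share would be counted to neither. Their low values are therefore not independent of each other, and the ratios that follow rest on them. The highest gene exceeded the lowest by a ratio of 2224 ± 306 in mir-17-92 (Mir17 and Mir19b-1) and 31.2 ± 7.61 in mir-106a-363 (Mir106a and Mir19b-2; SD, n = 2 each).

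The genes of mir-106b-25 came closer. Mir20a exceeded Mir93 by a ratio of 1.16 in replicate 2 and 1.28 in replicate 1, and Mir17 exceeded it by 3.10 and 3.32. Mir93 itself stood at 7756 and 6740 CPM in replicates 2 and 1, and Mir106b, between Mir20a and Mir18, at 4469 and 4685 CPM. Mir92-1 exceeded Mir25, which has the same seed, by 5.52 in replicate 2 (5.29 to 5.77) and 5.66 in replicate 1 (5.38 to 5.95).

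Summed over all genes with a matched mature strand of the same seed, the cluster gave most of the counts of each of its 4 seed families. Mature sequences, with the entries of 1 chromosome left out, were matched to 927 of the 1973 genes. These held 89.0% and 89.2% of the sense counts in replicates 2 and 1. The AAAGUGC family took 4.40% ± 0.198 (SD, n = 2) of all sense counts, and Mir17 and Mir20a gave 72.7% of it in replicate 2 and 72.8% in replicate 1. Mir93 gave 16.5% ± 0.893 (SD, n = 2), Mir106b 10.4% ± 0.816, Mir106a 0.215% and Mir20b 0.112%. Mir6383 also carries this seed and had 0 counts in both libraries.

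The AUUGCAC family took 0.314% ± 0.0157 (SD, n = 2) of all sense counts, and Mir92-1 gave 76.5% of it in replicate 2 and 75.7% in replicate 1. Of its 7 genes, 6 reached 10 CPM in both libraries. Beside Mir92-1 these were Mir25, at 429 ± 32.0 CPM, Mir32, at 120 ± 2.30 CPM, Mir92b, at 93.4 ± 0.454 CPM, Mir363 and Mir92-2. The last, Mir367, stood at 1.95 CPM. Mir18 gave 99.7% ± 0.0523 (SD, n = 2) of the counts of the AAGGUGC family. Mir19a and Mir19b-1 gave 95.8% and 94.2% of those of the GUGCAAA family in replicates 2 and 1, a family of 335 and 277 counts in all. These shares leave out reads that fit several places, and the families of Mir19b-1 and Mir92-1 hold strands with 2 copies. The counts do not separate the arms of a hairpin, so any reads of an arm without the seed are included.

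**Figure D3:**
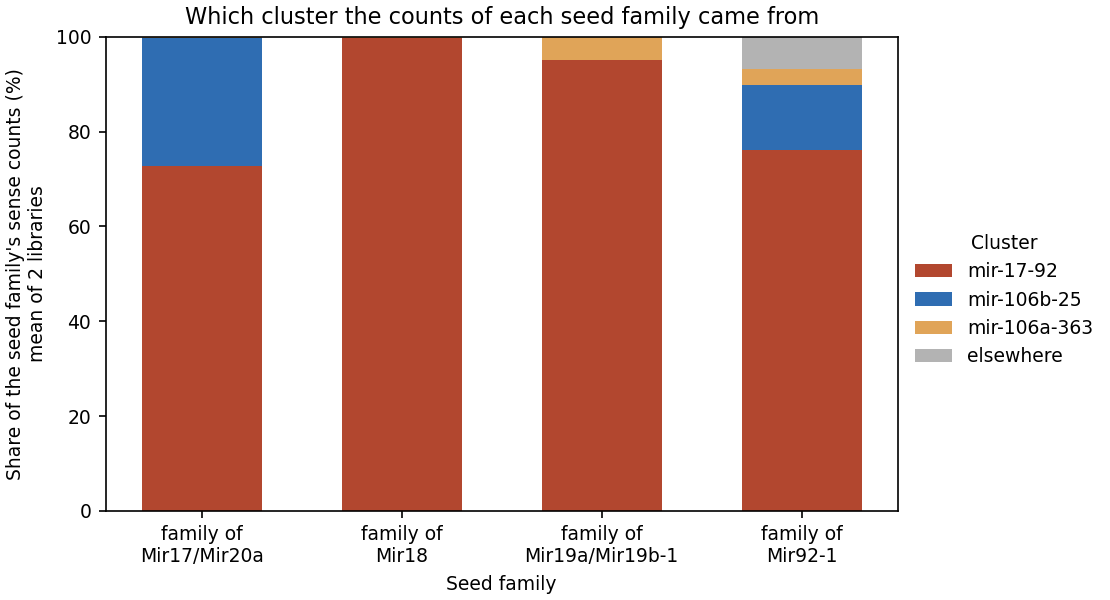
Share of each seed family's sense counts, in percent and as the mean of 2 libraries, that came from mir-17-92, from its paralogous clusters and from genes elsewhere. The part from mir-17-92 is 72.8% for the family of Mir17 and Mir20a, 99.7% for Mir18, 76.1% for Mir92-1 and, in the single libraries, 94.2% to 95.8% for Mir19a and Mir19b-1.

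The 2 libraries held the cluster at nearly the same level. Differences are replicate 2 over replicate 1 on the log2(CPM + 1) scale, and the exact two-sided binomial test compares the libraries under counting error alone. None of the 6 members had an adjusted p of 0.05 or less together with a ratio of 2-fold, where 0.421% of the 712 genes with a count did (Benjamini-Hochberg over these genes). Without a minimum ratio, 3 of the 6 members passed, all higher in replicate 2, where 16.7% of all genes passed, 8.01% higher and 8.71% lower in replicate 2. That rule favours genes with many counts: among the 78 genes with at least 10000 counts in total, 65 passed.

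The members that passed were Mir17, with a log2 ratio of 0.10 (adjusted p = 3.05e-60, exact binomial test), Mir92-1 with 0.12 (adjusted p = 5.64e-09, exact binomial test) and Mir20a with 0.06 (adjusted p = 2.72e-08, exact binomial test). Mir18 had a log2 ratio of 0.03 and did not pass (adjusted p = 0.364, exact binomial test), nor did Mir19a with 0.11 and Mir19b-1 with −0.17, which had few counts. With both libraries scaled by TMM, Mir18 passed as well, at 0.05 (adjusted p = 0.0207, exact binomial test). With the edgeR exact test, none passed, and the adjusted p was 1 for each of the 6 members. Its common dispersion was estimated from the same 2 libraries as 1 group, so their difference enters its noise term. That result therefore cannot show that the libraries are alike. The median log2 ratio over the 6 members was 0.08, beside 0.0025 over all 712 genes. Of the 9 genes of the paralogous clusters, 0 were called with the 2-fold minimum and 3 passed without it, Mir93 (0.20) and Mir25 (0.15) higher and Mir106b (−0.07) lower in replicate 2. Their median was 0.07.

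**Figure D4:**
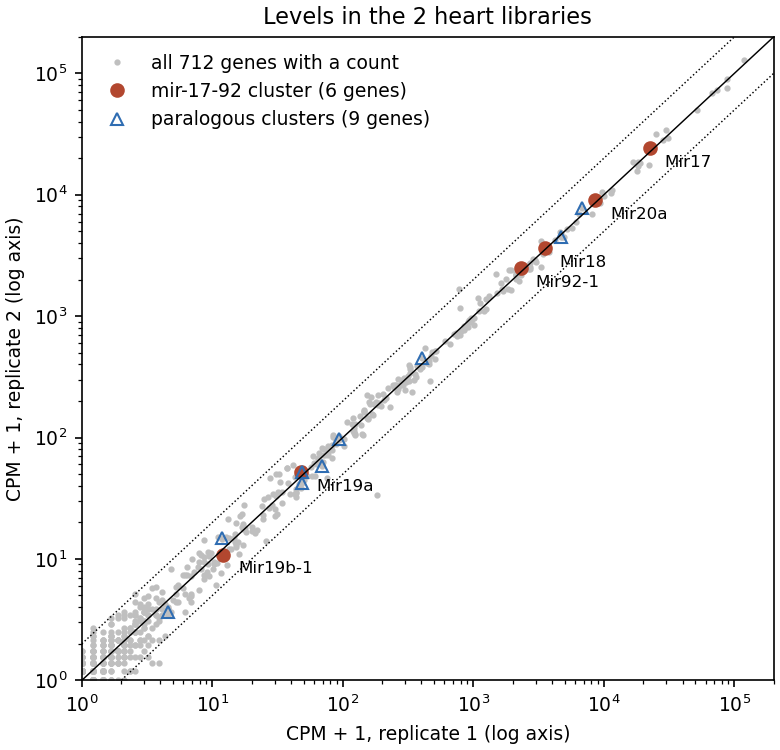
CPM + 1 of each gene in replicate 2 against replicate 1 on log axes, for all 712 genes with a count (grey), the 6 genes of mir-17-92 (filled circles) and the 9 genes of its paralogous clusters (triangles). The solid line marks equal levels and the dotted lines a 2-fold ratio, and the members lie on or close to the solid line from 10.5 to 23223 CPM.

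The makeup of the cluster was also alike in both libraries. Mir17 took 61.4% of the cluster's counts in replicate 2 and 60.7% in replicate 1, Mir20a 22.9% and 23.3%, Mir18 9.21% and 9.60%, and Mir92-1 6.36% and 6.22%. The ratio of Mir17 and Mir20a to Mir93 and Mir106b, genes of the same seed at another locus, was 2.70 in replicate 2 and 2.72 in replicate 1. Some markers of other cells differed more between the libraries. The erythroid Mir451a stood at 1671 and 770 CPM in replicates 2 and 1, while Mir144, the other erythroid marker, was slightly lower in replicate 2, at 140 and 156 CPM. The liver microRNA Mir122 stood at 32.4 and 181 CPM. Their part in the differences of the members was not tested.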

How the data were processed

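Each library has 1 deposited table of raw read counts over microRNA genes, made by the authors without pooling on mm10 with annotation M4, per the descriptions deposited with the tables. The aligner and the counting tool are not named in the sources used here. The 3 count columns have no names. The second holds nearly all counts of the first and was taken as the sense counts. The 4 rows that name no gene (unmapped, fitting several places, outside genes, ambiguous) were kept out of totals and tests.

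Names and positions came from GENCODE M21, which held 1894 of 1973 gene rows, and sequences from the RefSeq table on GRCm38.p6. Entries of a chromosome that holds neither the cluster nor its paralogous clusters were left out of the sequences. Numbers of copies, shared runs, seed families and matched genes refer to the rest of that table, and no genome was searched. CPM used the sum of sense counts, with a pseudocount of 1 before log2. The binomial test was tested on counts simulated with counting error alone, which is the noise it assumes. How it behaves where libraries differ by more than counting error was not tested. The p-values of the binomial test were adjusted by Benjamini-Hochberg over 712 genes. The members, the lists and the rule for named genes (all members, their relatives by cluster and seed, and the 2 genes above and below each member in level) were chosen with earlier results of these data known, although the rule for members uses gene names alone. Other denominators, strand columns and scalings were tried with edgeR 4.0.16 and DESeq2 1.42.0 in R 4.3.3. Other steps used Python 3.11.15, scipy 1.17.1 and matplotlib 3.10.9.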

Additional observations from a re-analysis of the deposited data

Results flagged for a closer look

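Reads that fit several places made up 26.2% of all reads on average over both libraries and are in no gene's count. They are given here as a signal outside the gene counts that touches the cluster, since the mature strands of Mir19b-1 and Mir92-1 occur in 2 genes each. The genes they came from are not recorded in the tables. With 2 libraries in 1 group, single outlying libraries and differences between groups could not be examined.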

How the results depend on the processing

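The cluster's share of 3.80% was 3.64% with counts taken without regard to strand, 2.48% with reads that fit several places in the denominator and 4.34% without Mir335, the most abundant gene, in it. It ranged from 3.69% to 3.92% when 1 library was left out. The ratio to both paralogous clusters, 3.04 ± 0.0169 (SD, n = 2), was 2.86 among genes with a mature strand of 1 copy, and 3.03 to 3.05 with 1 library left out. Members called between the libraries numbered 0 with unstranded counts, TMM, DESeq2 size factors, a minimum of 10 counts and the edgeR exact test. Without a minimum ratio they numbered 3. The largest log2 ratio of a member in size was −0.17, far short of 2-fold. The settings that kept the 2-fold minimum could therefore not have given a call, and the repeated 0 does not show stability. With pseudocounts of 0.5 and 5 CPM, the log2 ratio of Mir19b-1 was −0.17 and −0.12. Levels of single members moved by more than 1 SD with 14 changes of denominator or strand column. With 2 libraries, leaving out 1 cannot move a mean by 1 SD, and counts without regard to strand equal the sense counts at all 6 members, so these settings do not show how stable the ratios between members are. No paired analysis was possible because there is 1 group. Depth limits Mir19b-1 most, at 52 and 50 counts.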
